A study of Rattus norvegicus with 2 samples.

Results

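Genes known as markers of tubular injury were examined in RNA from rat urine. They were chosen by name: Havcr1, Lcn2, Clu, Spp1, Cd44, Sox9, Vcam1, Icam1 and Cd24, each found through its NCBI gene ID. Of these 9 genes, 8 were among the 16484 gene IDs of the table, which lists 113011 features in all, most of them noncoding entries. No row with the gene ID of Sox9 was found, so that Sox9, a transcription factor switched on in repairing tubule cells, was not analysed here.

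The urine came from Sprague Dawley rats with a labelled age of 56 postnatal days. UUO, unilateral ureteral obstruction, was made by tying the right ureter, and the group labelled WT had the same operation without the tie (sham). Urine was drawn from the ureter by catheter 2 weeks later, in UUO rats from the side of the tied kidney. Each group is 1 library, and the number of rats behind it is not given in the sources used here. No difference below therefore has a replicate check, no test between the groups was possible, and every value describes these 2 libraries.

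A damaged tubule cell loses the transporters of its resting state and takes on a repair state, in which it makes proteins that bind debris, matrix and immune cells. Havcr1, called kidney injury molecule 1, is a receptor for phosphatidylserine on dying cells whose outer part is shed into urine. Lcn2 (neutrophil gelatinase-associated lipocalin) binds iron carriers of bacteria, Clu (clusterin) is a chaperone outside the cell, and Spp1 (osteopontin) is a secreted ligand of integrins and of Cd44. Cd44 is the hyaluronan receptor, Vcam1 and Icam1 are adhesion molecules that hold leukocytes, and Cd24 is a small lipid-anchored glycoprotein found on renal epithelium and on progenitor cells.

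The values are FPKM, fragments scaled to transcript length and library size, so that levels of different genes can be set side by side. A gene was called detected at an FPKM of at least 1. In WT urine 2 of the 8 genes were detected, Clu and Cd24, and the other 6 were listed at 0. In UUO urine 7 were detected, and Vcam1 lay below the limit. The order in UUO urine was Clu, Spp1, Cd24, Cd44, Lcn2, Icam1, Havcr1 and Vcam1, and without replicates it cannot be said which neighbours differ.

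**Figure D1:**
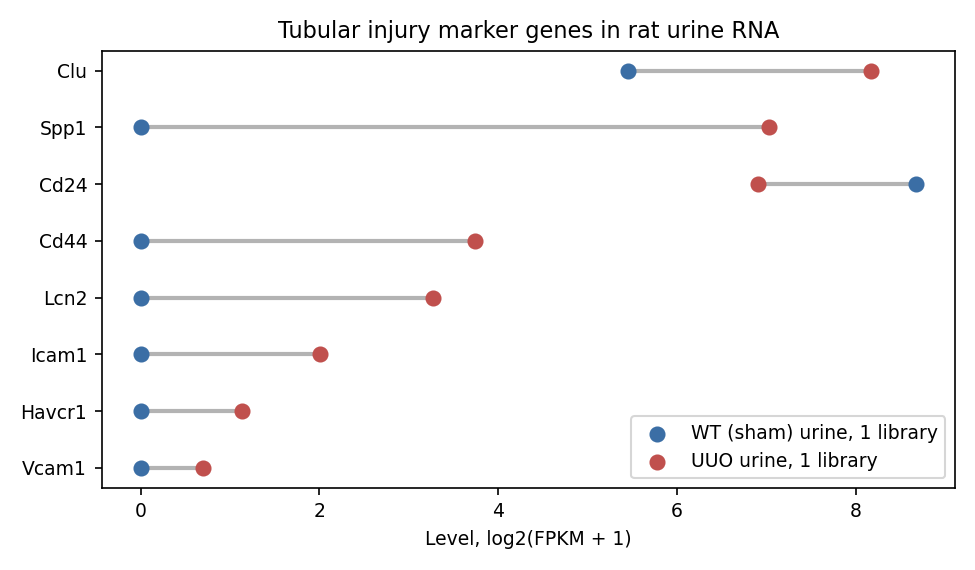
Level of the 8 measured injury marker genes as log2(FPKM + 1) on the horizontal axis, with 1 point for the WT library (blue), 1 point for the UUO library (red) and a grey line between them. The 6 genes other than Clu and Cd24 sit at 0 in WT urine, Clu lies further right in UUO urine, and Cd24 alone lies further left there.

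Among the secreted and shed proteins, Clu (ID 24854, chromosome 15, 48926510 to 48987052) had an FPKM of 42.7 in the WT library and 287 in the UUO library. It was 6.72-fold higher in UUO urine, and the difference of log2(FPKM + 1) was 2.72. In UUO urine Clu ranked 70 among the gene IDs by FPKM, against 1691 in WT urine. Its level was above that of 99.2% of the detected genes in UUO urine and of 78.3% in WT urine. Clu shares its listed locus with 17 other features, 1 of them the scavenger receptor gene Scara3, and the sum over this locus was 59.8 in WT and 310 in UUO urine. The log2 difference of the sums was 2.35, so that the direction for Clu did not rest on how reads were divided among overlapping entries.

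Spp1 (ID 25353, chromosome 14, 6653085 to 6658937) was listed at 0 in WT urine and had an FPKM of 130 in UUO urine, where it ranked 170. It was the second most abundant of the injury markers there, yet no feature at its locus held any signal in WT urine. Lcn2 (ID 170496, chromosome 3, 16763054 to 16766465) was listed at 0 in WT urine and at 8.63 in UUO urine, near the middle of the detected genes (above 55.0% of them). Havcr1 (ID 286934, chromosome 10, 31633189 to 31668189), the best known of these markers, was listed at 0 in WT urine and had an FPKM of only 1.20 in UUO urine. Just 3.06% of the genes detected in UUO urine had a lower level than Havcr1.

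Among the adhesion molecules, Cd44 (ID 25406, chromosome 3, 99338247 to 99426059) was listed at 0 in WT urine and at 12.4 in UUO urine, above 66.9% of the detected genes. Icam1 (ID 25464, chromosome 8, 22092143 to 22103927), the ligand of the leukocyte integrins LFA-1 and Mac-1, was listed at 0 in WT and at 3.02 in UUO urine. Vcam1 (ID 25361, chromosome 2, 237158191 to 237177702), the ligand of the integrin VLA-4, was listed at 0 in WT urine and at 0.626 in UUO urine. All 3 genes had a value above 0 in the UUO library alone.

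Cd24 (ID 25145, chromosome 20, 49989290 to 49994627) was the exception. It stood at 407 FPKM in WT urine but at 119 in UUO urine, 3.41-fold lower, and the log2 difference was -1.76. Even so it was abundant in both libraries, ranking 87 among the gene IDs in WT and 188 in UUO urine. In WT urine it was the most abundant of the injury markers, and in UUO urine Clu and Spp1 stood above it. The log2 difference of the sums over its locus was -1.73. The methods state that the urine was centrifuged before storage and again before RNA isolation. In this bulk RNA, fewer cells of a type, less RNA per cell and less RNA outside cells cannot be told apart.

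By the limit of a log2 difference of 1 (2-fold on this scale) among genes detected in either library, 6 of the 8 genes were higher in UUO urine (Havcr1, Lcn2, Clu, Spp1, Cd44 and Icam1) and 1 was lower (Cd24). Vcam1 did not enter this count. Over all gene IDs the same limit was passed upward by 2534 of 9853 (25.7%) and downward by 3600 (36.5%). Of the 6 higher genes, 5 passed the filter only through their UUO value with a WT value of 0, and such a gene passes the 2-fold limit by construction. The count for those 5 therefore repeats that they were listed at 0 in WT urine. The same is true of 1903 of the 2534 gene IDs that were higher. The median log2 difference of the 7 genes, 2.72, is set above 1 by those 5 and is not read against the median of all gene IDs, -0.51. Above 0 in both libraries were Clu and Cd24 alone, 1 higher and 1 lower, and 7784 gene IDs, of which 631 were higher and 3434 lower. Measured from the median of -0.51, Clu differed by 3.23 and Cd24 by -1.25. Of the 9853, 493 had a log2 difference above that of Clu, and 16.4% one below that of Cd24.

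How far the zeros carry depends on the level. Of 9278 gene IDs detected in UUO urine, 1903 (20.5%) had a WT value of 0. The same held for 5 of the 7 injury markers detected in UUO urine. Zeros were rarer in the other direction, where 166 gene IDs detected in WT urine (2.13%) had a UUO value of 0. Above 0 were 8024 gene IDs in WT urine and 12008 in UUO urine. What part this imbalance has in the WT zeros of the injury markers was not tested. The share of WT zeros was 59.4% among genes with a UUO FPKM of 1 to 2. It was 1.15% at 64 to 128 and 4.26% (4 of 94 genes) at 128 to 256. Among 2237 genes whose UUO level lay within 2-fold of that of Havcr1, 61.9% were listed at 0 in WT urine. For genes near Icam1 the share was 32.8%, and for genes near Vcam1 77.1%. A zero was thus the common state of genes at the levels of Havcr1 and Vcam1. The share was 13.0% near Lcn2 and 8.89% near Cd44. Near Spp1 only 6 of 345 genes (1.74%) were listed at 0 in WT urine, so that for Spp1 this value was rare among genes of its level.

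**Figure D2:**
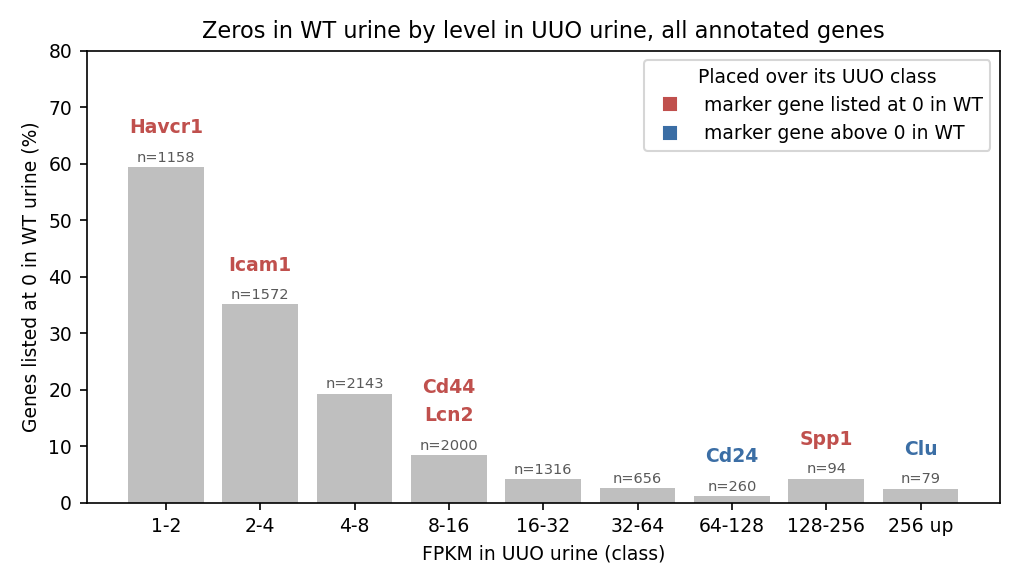
Share of annotated genes listed at 0 in WT urine (vertical axis, percent) by class of FPKM in UUO urine (horizontal axis), with the number of genes above each bar. Names mark the class of each injury marker, in red if it was listed at 0 in WT urine and in blue if not. The share is 59.4% at an FPKM of 1 to 2, where Havcr1 lies, and 4.26% at 128 to 256, where Spp1 lies.

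The depth sets a similar limit. From the steps in the FPKM of short assembled loci, 1 fragment on a feature of 1000 bases was worth 0.542 FPKM in the WT library and 0.496 in the UUO library. A count of 0 allows up to 3 fragments, an FPKM of 1.63 on such a feature in WT urine, and this covers counting error only. The UUO values of Havcr1 and Vcam1 lie below this level, so that at this length their zeros in WT urine would not show a difference. Those of Icam1, Lcn2, Cd44 and Spp1 lie above it, which does not settle their zeros. Of 8024 gene IDs above 0 in WT urine 7793 had an FPKM of at least 1, against 9278 of 12008 in UUO urine. Values between 0 and 1 were thus rare in WT urine. Among genes at 4 to 8 in UUO urine 19.3% were listed at 0 in WT urine, and at 8 to 16 it was 8.40%. Whether the WT limit was higher than 1.63 was not tested. Transcript lengths of the members are not in the table, and a longer transcript has a lower limit.

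A zero of a gene ID can also be a matter of division between overlapping entries. Jun, a transcription factor gene, was at 79.0 in WT urine and listed at 0 in UUO urine. Summed over its locus UUO urine held more, 266 against 79.0 in WT urine. Ppia, a gene every cell uses, was also listed at 0 in UUO urine and at 27.7 in WT urine, and the sum over its locus was lower there too, 4.02 against 29.5. For the injury markers the other entries of a locus held little. At the loci of the 6 genes listed at 0 in WT urine lay 18 other features, and the highest WT value among them was 0.0915, at the locus of Cd44. The sum over the locus was 0 in WT urine for Havcr1, Lcn2, Spp1 and Vcam1, 0.183 for Cd44 and 0.0405 for Icam1. No other gene ID with a symbol beginning Havcr1 was found in the table, and sharing of reads with such copies was not tested.

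The study's scaling also moves such counts. After rescaling UUO values to equal sums, the split over all gene IDs turned from 2534 higher and 3600 lower to 3622 higher and 2157 lower. The median ratio gave 4207 and 1652, and the 75th percentile 4057 and 1758. Scaling to equal sums of 9 general epithelial genes, chosen after the data were seen, gave 2076 and 4367. The median of all gene IDs moved from -0.51 to 0.15, 0.46, 0.39 and -0.85 in that order. Clu was higher under each of the 4 scalings and Cd24 lower under each. The factors applied to UUO values lay between 0.793 and 1.86, and none could turn a fold of 6.72 (Clu) or 3.41 (Cd24). The log2 difference of Clu ranged from 2.35 to 3.61 and that of Cd24 from -2.09 to -0.87 over all settings tried, and with the median ratio or the 75th percentile Cd24 was under 2-fold.

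**Figure D3:**
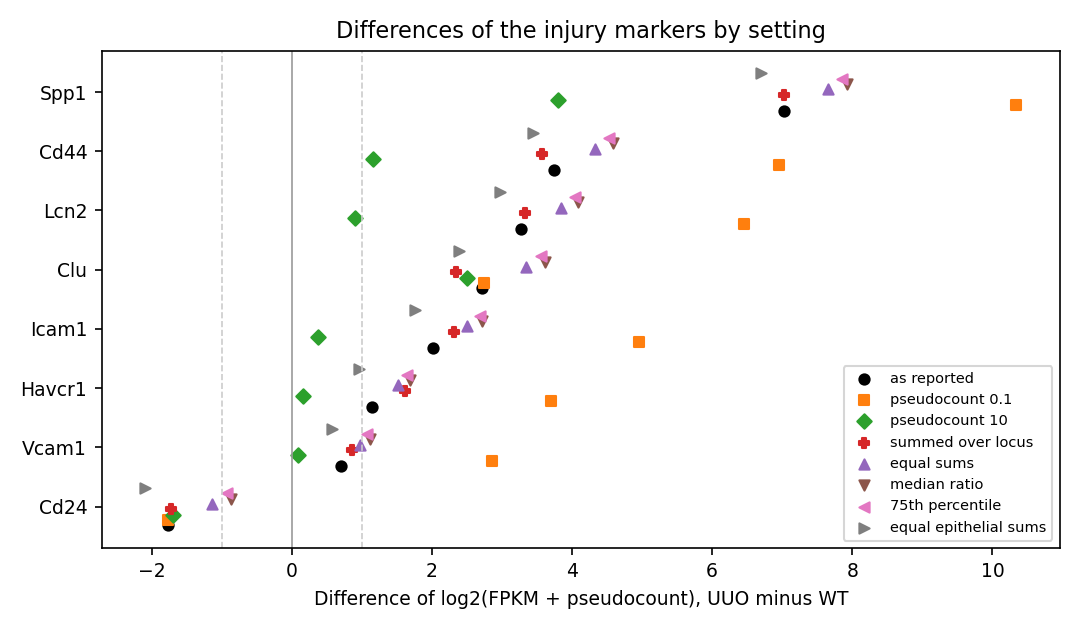
Difference of log2(FPKM + pseudocount) between UUO and WT urine (horizontal axis) for each measured injury marker under 8 settings, 1 symbol per setting, with dashed lines at a 2-fold difference. Cd24 is the only gene left of 0, from -2.09 to -0.87, and Spp1 stays furthest right under each setting. A pseudocount of 10 brings Havcr1, Icam1 and Lcn2 under the 2-fold line, where Vcam1 lies as reported.

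A ratio within a library does not depend on the scaling. Relative to the summed FPKM of the 9 general epithelial genes, Clu stood at 3.54% in WT urine and 18.9% in UUO urine. Cd24 stood at 33.7% and 7.85%. Spp1 reached 8.54% in UUO urine, while Cd44 reached 0.815%, Lcn2 0.568%, Icam1 0.199%, Havcr1 0.0788% and Vcam1 0.0412%. Epithelial RNA itself was plentiful in both libraries. Krt8, a keratin of simple epithelia, reached 578 FPKM in WT and 748 in UUO urine, and Epcam, an epithelial adhesion molecule, 72.5 and 107. All 9 genes of that list were detected in both libraries, with 1 higher (Cldn7), 1 lower (Ehf) and a median log2 difference of 0.37.

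The promoters of the adhesion molecules Vcam1 and Icam1 are known targets of NF-kB, a transcription factor of inflammation. They are shown with those of Spp1, the marker with the highest UUO level among those listed at 0 in WT urine, and of Cd24, the 1 marker that was lower. Each line gives the 250 bases before the annotated start from RefSeq (build GRCr8), 5′ to 3′ on the strand of the gene. The windows are chr2:206742784-206743033 (minus strand) for Vcam1, chr8:27829595-27829844 (plus strand) for Icam1, chr14:5619805-5620054 (minus strand) for Spp1 and chr20:48656227-48656476 (plus strand) for Cd24. Capitals mark matches to the searched motifs.
Vcam1: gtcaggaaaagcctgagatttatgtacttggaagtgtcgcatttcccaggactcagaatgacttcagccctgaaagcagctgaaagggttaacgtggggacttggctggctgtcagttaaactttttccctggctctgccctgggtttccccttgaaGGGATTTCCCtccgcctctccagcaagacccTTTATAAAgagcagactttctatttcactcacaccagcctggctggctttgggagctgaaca
Icam1: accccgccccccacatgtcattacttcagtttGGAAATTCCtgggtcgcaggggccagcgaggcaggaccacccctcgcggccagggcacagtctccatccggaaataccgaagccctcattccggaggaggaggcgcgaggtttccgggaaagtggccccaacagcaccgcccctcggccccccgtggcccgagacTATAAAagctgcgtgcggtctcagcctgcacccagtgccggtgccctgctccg
Spp1: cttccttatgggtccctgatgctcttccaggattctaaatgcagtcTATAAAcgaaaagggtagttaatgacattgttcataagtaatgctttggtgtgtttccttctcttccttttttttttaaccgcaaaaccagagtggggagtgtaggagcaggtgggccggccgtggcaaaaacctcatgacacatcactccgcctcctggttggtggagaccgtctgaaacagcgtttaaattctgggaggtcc
Cd24: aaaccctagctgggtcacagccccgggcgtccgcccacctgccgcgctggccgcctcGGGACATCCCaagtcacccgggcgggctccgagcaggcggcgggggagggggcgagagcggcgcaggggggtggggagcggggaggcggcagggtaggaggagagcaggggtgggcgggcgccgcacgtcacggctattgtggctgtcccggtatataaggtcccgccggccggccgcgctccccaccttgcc

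A promoter was found for 7 of the 9 named genes, all but Clu and Sox9. On both strands these windows and those of all 33469 listed promoters were searched for the NF-kB consensus, for the NF-kB site GGAAATTCC, for the AP-1 site TGANTCA, for the TATA box TATAAA and for CAGACA, the Smad3 motif used by the study. The NF-kB consensus was found in Vcam1 (bases 93 to 84 before the start), Lcn2 (242 to 233) and Cd24 (193 to 184), and in 3.54% of all promoters. GGAAATTCC, a single site searched apart from the consensus, was found in Icam1 (218 to 210) and in 0.287% of all. Icam1 did not match the consensus, and the share of 0.287% is not read as a result about Icam1. The letters TATAAA were found in Vcam1 (62 to 57 and 60 to 55, which overlap), Icam1 (53 to 48) and Spp1 (204 to 199). They were found in 12.9% of all, and whether any match acts as a TATA box was not tested. No member held TGANTCA, found in 6.34% of all promoters, or CAGACA, found in 17.2%. Cd24, lower in UUO urine, and Lcn2, listed at 0 in WT urine, thus both held the NF-kB consensus. Base composition differed widely, from 46.8% G and C for Spp1 to 75.6% for Cd24 among the windows shown, against a median of 51.2% over all. A match describes letters in these windows and is no evidence of binding.

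Further genes of tubular injury and repair were taken from a list of 32, chosen with earlier results of these data known. Of these, 31 were in the table and 26 were detected in at least 1 library. Of the 26, 14 were higher by 2-fold and 0 lower, with a median log2 difference of 1.15. Of those 14, 6 were listed at 0 in WT urine. Among the 20 genes above 0 in both libraries 8 were higher and 0 lower, with a median of 0.72, against -0.84 over all gene IDs above 0 in both. Under equal sums of the general epithelial genes 13 were higher and 1 was lower, and under the median ratio 23 were higher. Summed over loci 15 were higher and 0 lower. Timp1, Nqo1 and Cp, counted as higher by gene ID, then had log2 differences of -0.67, 0.04 and -0.56. Hmox1, the enzyme that breaks down haem, was listed at 0 in WT urine and had an FPKM of 158 in UUO urine. Igfbp7, a secreted binding protein of growth factors and a urinary marker of kidney stress, was at 10.4 in WT and 167 in UUO urine, a log2 difference of 3.88. The keratins of injured and simple epithelium were the most abundant genes of the list, with Krt19 at 357 in WT and 752 in UUO urine and Krt7 at 368 and 579. Cdkn1a, an inhibitor of the cell cycle, was at 98.6 and 54.7, and Anxa1, a phospholipid-binding protein, at 96.1 and 80.7. Both lay within 2-fold. Krt8 and Krt18 of this list also belong to the general epithelial genes.

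The 12 genes of the resting proximal tubule were mostly lower in UUO urine, as were many other genes. All passed the limit of detection in WT urine and 8 did so in UUO urine, and 11 were lower by 2-fold in UUO urine and 0 higher. The median log2 difference was -1.97, and between -2.27 and -1.56 under the 4 scalings, with 10 or 11 genes lower. Over all gene IDs 36.5% were lower and 25.7% higher. Above 0 in both libraries were 11 of the 12, 10 of them lower. Of 7784 such gene IDs 3434 were lower and 631 higher, with a median of -0.84. Among housekeeping genes 5 of 8 detected were lower, with a median of -1.32. What part a general fall has in the proximal tubule values was not tested. Miox, the enzyme that opens inositol, was at 925 in WT and 245 in UUO urine, and Hnf4a, the transcription factor of proximal tubule identity, at 158 and 39.6. Ggt1, a brush border peptidase, was at 61.2 and 24.3. Slc13a3, a dicarboxylate carrier, was at 33.4 and 1.08, and Slc22a8, an organic anion carrier, at 12.1 and 0.0807. In summed FPKM the 12 genes held 1317 in WT and 350 in UUO urine. Over the same libraries the 14 genes of the loop, distal tubule and collecting duct held 230 and 263, with 4 higher and 1 lower. Their median was 0.13 at the study's scaling. It was 0.73 under equal sums, 0.98 under the median ratio, 0.93 under the 75th percentile and -0.31 under equal epithelial sums. Of the 4 higher genes 3 were listed at 0 in WT urine. Aqp3, a water channel of the collecting duct, was at 85.1 in WT and 121 in UUO urine, and Aqp2, its vasopressin-regulated relative, at 50.2 in WT urine and 1.43-fold lower in UUO urine. Calb1, a calcium-binding protein of the distal tubule, was at 12.6 and 35.6. Kcnj1, a potassium channel, and Atp6v1g3, a proton pump subunit, were listed at 0 in WT urine and at 2.83 and 2.74 in UUO urine, while Kl (klotho) was 5.52-fold lower there.

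**Figure D4:**
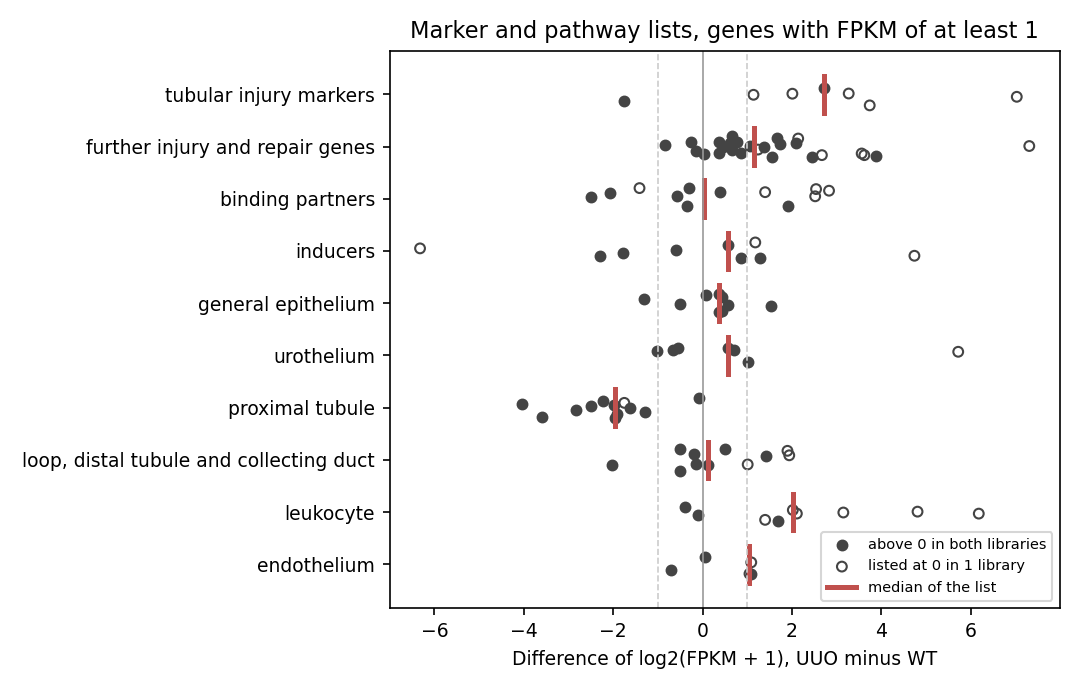
Difference of log2(FPKM + 1) between UUO and WT urine (horizontal axis) for the detected genes of 10 lists. Filled points are genes above 0 in both libraries, open points are genes listed at 0 in 1 of them, red bars are list medians and dashed lines mark 2-fold. Of the 6 injury markers right of the 2-fold line 5 are open points, and the proximal tubule genes lie left of 0, with a median of -1.97.

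Binding partners of the marker proteins gave no common direction. Of 21 listed genes 17 were in the table and 12 detected, 5 of them higher and 3 lower by 2-fold, with a median of 0.04. That median was 0.60 under equal sums, 0.86 under the median ratio, 0.81 under the 75th percentile and -0.22 under equal epithelial sums. Of the 5 higher genes 4 were listed at 0 in WT urine. Lrp2 (megalin), the proximal tubule receptor that takes up lipocalin and clusterin, was at 38.7 in WT urine, also belongs to the proximal tubule list, and was 6.45-fold lower in UUO urine. Slc22a17, a receptor of lipocalin, was at 4.48 and 0.297, but summed over its locus the log2 difference was -0.02 in place of -2.08. Among the integrin chains, which bind osteopontin, Vcam1 or Icam1, Itgb1 was at 6.58 in WT and 27.6 in UUO urine, Itgb5 at 24.4 and 18.9, and Itgb3 was listed at 0 in WT urine and at 6.10 in UUO urine. Vldlr, a lipoprotein receptor that binds clusterin, was listed at 0 in WT and at 4.82 in UUO urine.

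The 12 cytokine and transcription factor genes known to act upstream of the adhesion molecules and of Lcn2 were also divided at the study's scaling. Of 9 detected genes 3 were higher and 3 lower by 2-fold, with a median of 0.56, and 2 of the 3 higher genes were listed at 0 in WT urine. Summed over loci 6 were higher and 2 lower, a setting under which the count over all gene IDs also moved, to 3972 higher and 3391 lower. Jun, 1 of the 3 lower genes, had a locus sum of 79.0 in WT and 266 in UUO urine. Under equal sums 6 were higher and 3 lower, and under the median ratio or the 75th percentile 7 and 2. Under equal epithelial sums 2 were higher and 3 lower, so that the split depends on the scaling. The inflammatory cytokine gene Il1b was listed at 0 in WT urine and at 25.7 in UUO urine. Rela, a subunit of NF-kB, was at 58.2 in WT and 11.1 in UUO urine, and Stat3, a factor of the interleukin 6 pathway, at 74.5 and 21.0. Atf3, a stress factor, was at 15.3 and 38.5, and Fos, of the AP-1 complex, at 54.6 and 101.

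Several of these proteins are made by other cells too, and markers of these cells were read in the same libraries. Of 14 leukocyte genes 13 were in the table, and the WT library detected 3 of them and the UUO library 9. Together they summed to 79.6 FPKM in WT urine against 208 in UUO urine, and 7 of the 9 detected in either library were higher by 2-fold, 0 lower. Of those 7, 6 were listed at 0 in WT urine and so had to pass the limit. The 3 genes above 0 in both libraries were Lyz2 (lysozyme), at 7.55 in WT and 26.5 in UUO urine, Cd74 and Cd14, with a median log2 difference of -0.11. The neutrophil and monocyte genes S100a8 and S100a9 were listed at 0 in WT urine and at 27.0 and 71.7 in UUO urine, while Cd74 of antigen presentation was at 70.0 and 64.8 and Cd14, a receptor of bacterial lipopolysaccharide, at 2.05 and 1.31. Itgam is counted here and among the binding partners. Mpo, Cd3e and Fcgr3a were listed at 0 in both libraries. The part of leukocytes in the values of Spp1, Cd44, Icam1 and Lcn2 was not tested. The 8 urothelium genes found, of 10 listed, held 834 in WT and 1131 in UUO urine, with 2 higher (1 of them listed at 0 in WT urine), 1 lower and a median of 0.58. Upk3a of the bladder and ureter lining was at 312 and 466, and Krt13 was listed at 0 in both. Krt5, a basal keratin, was listed at 0 in WT and at 51.8 in UUO urine, but the log2 difference of its locus was 0.13.

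Endothelial genes, which could accompany Vcam1 and Icam1, were scarce. The 10 genes summed to 3.33 in WT and 6.21 in UUO urine, and 3 of the 5 detected were higher by 2-fold, 2 of them listed at 0 in WT urine. The median of the 5 was 1.05. Under equal epithelial sums the 3 higher genes fell below the limit of detection, and the median of Tie1 and Vwf alone was -0.48. Of the 10, Cdh5, Tek, Plvap and Emcn were listed at 0 in both libraries, though the locus of Tek summed to 3.24 in WT and 0.562 in UUO urine. The others held signal in at least 1 library. Vwf was at 1.80 in WT and 1.90 in UUO urine, and Tie1 at 1.54 and 0.561. Summed over their loci the log2 differences were 1.23 for Vwf and 0.97 for Tie1. For Esam, 1 of the 3 higher genes, the log2 difference over the locus was -0.66. Pecam1, Egfl7 and Kdr were listed at 0 in WT urine and at 1.07, 1.12 and 0.431 in UUO urine. The 5 red-cell genes found, of 6 listed, summed to 2468 in WT and 77733 in UUO urine, and all 5 were higher by 2-fold, with a median log2 difference of 5.17. Among housekeeping genes, 5 of 8 detected were lower by 2-fold, with a median of -1.32, and Hprt1 of nucleotide salvage was listed at 0 in both libraries. What part blood or the scaling has in the values of the injury markers was not tested.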

How the data were processed

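RNA from urine was sequenced as 1 WT and 1 UUO library. Per the submitters' processing notes, reads were aligned to rn5 with TopHat2 2.0.9 and Bowtie2 2.0.6, and Cufflinks and Cuffdiff 2.1.1 were used. The methods describe removal of ribosomal RNA and strand-specific libraries for kidney RNA. The labels name Trizol for urine, the methods a column kit. The methods also describe centrifuging the urine before storage and again after thawing, and which fraction gave the RNA is not stated. The authors deposited 1 FPKM value for each feature in each library. The total used for scaling is not given in the sources used here. Columns of the authors' own fold changes, test statistics, p-values and q-values were not used. Gene positions are those of the table.

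The conditions are named UrRf and Urc there. They were read as UUO and WT because lists of urine transcripts published with the study carry these values under headings for UUO and sham, and each direction would turn if the names were exchanged. Symbols came from RefSeq (GRCr8), which matched 16329 of 16484 gene IDs.

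Differences were taken on log2(FPKM + 1), a scale that makes differences of low genes smaller. The limits were an FPKM of 1 and a log2 difference of 1. All injury markers are named. Genes named from the other lists are among the 3 with the highest FPKM, the 2 with the greatest difference in each direction, or those at 0 in both libraries. Lyz2, Scara3, Pecam1, Kdr, Timp1, Nqo1, Cp and the noncoding entries were named after their values were seen. The values of 1 housekeeping gene are not reported here. Members and lists were chosen with earlier results of these data known, and the level classes after the data were seen. Fragment steps were fitted to assembled features alone at a locus of 400 to 1200 bases, with totals from 1000000 to 3000000. At 2115000 (WT) and 2446000 (UUO), 93.5% of 186 and 99.5% of 3530 features gave fragment numbers whole to within 0.1. A multiple of these totals would also give whole numbers, and would lower the value of 1 fragment. The calculations were tested on simulated data and run with Python 3.11.15, numpy 2.4.6 and pandas 2.3.3.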

Additional observations from a re-analysis of the deposited data

Results flagged for a closer look

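At the loci of the injury markers, 5 features outside the main comparison had an FPKM of at least 1 in UUO urine and a lower value in WT urine. At the locus of Clu these were Scara3, at 13.0 in UUO urine and listed at 0 in WT urine, and the noncoding entries NONRATT020618 (1.11 and 0.760), NONRATT021523 (2.35 and 0) and NONRATT021527 (1.96 and 0). At the locus of Cd24 it was NONRATT033449, at 2.50 in UUO urine and listed at 0 in WT urine, opposite in direction to Cd24 itself. Reads of overlapping entries are divided between them, and the share of each was not tested.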

How the results depend on the processing

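No paired analysis was possible because WT and UUO are 1 library each. A count within 1.5 times of its reported value, or a log2 difference with the same sign and the same side of 1, is taken as unchanged. Of 56 values recomputed for single markers, 47 were unchanged, 9 moved across 1 and 0 changed sign. For the 6 markers listed at 0 in WT urine no pseudocount or scaling could turn the sign. The count of sign changes is therefore no check of their direction. With a pseudocount of 10, 3 markers were higher by 2-fold and the median log2 difference was 0.90. No marker was lower (0) at a 4-fold limit, by the median ratio or at the same 75th percentile (of gene IDs above 0 in either library). Scaling to equal epithelial sums (UUO values times 0.793), chosen after seeing the data, left 5 markers higher and an endothelial median of -0.48. Under it Havcr1, at 1.20 in UUO urine, fell below the limit of detection and left the count. Of the endothelial genes Pecam1, Egfl7 and Esam (1.07, 1.12 and 1.12 in UUO urine) did so too. The -0.48 is thus the median of Tie1 and Vwf alone, and before this scaling the sums over both loci were higher in UUO urine. The cause of the other shifts was not tested. Fragments per gene were not recovered, so that low values such as those of Havcr1 and Vcam1 carry no interval.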
